A study of Mus musculus with 8 samples.

Results

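The 10 genes described here belong to the IL-1, TNF and IL-6 cytokine families and were measured in RNA recovered from tagged ribosomes of mouse skin: the ligands Il1b, Il33, Tnf, Il6 and Lif, the IL-1 antagonist Il1rn, and the receptor genes Il1r1, Il6ra, Il6st and Osmr. They were taken by symbol from the 53700 gene identifiers of the count table, and all 10 were found, each in 1 row. All 8 libraries came from skin of AdipoqCreER;R26-NuTRAP mice given tamoxifen. In AdipoqCreER mice, adiponectin regulatory sequence, which is active in adipocytes, drives a Cre protein that works only once tamoxifen activates it. NuTRAP then tags the ribosomes of recombined cells with GFP, and an antibody to GFP recovers the RNA bound to them. The groups were uninjured skin (n = 3), and skin taken 3 days (n = 2) and 7 days (n = 3) after wounding, where the titles' abbreviation was read as days after wounding. The labels' protocol gives an age of 7 to 9 weeks and 4 full-thickness punch wounds of 5 mm, and the series title places the data in a study of adipocytes turning to fibroblasts during repair. Whether a library stands for 1 mouse or a pool is not stated, so p-values measure the spread between these libraries, which may in part be technical. All column names of a group begin with a number that differs from that of the other groups. What that number marks is not given, and it cannot be told apart from the groups.

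Interleukin 1β is released mainly by activated myeloid cells and signals through the receptor encoded by Il1r1, while the antagonist encoded by Il1rn occupies the same receptor without signalling. Interleukin 33 is a nuclear cytokine of barrier and stromal cells that is freed by damage and read by the receptor ST2, encoded by Il1rl1. IL-1 and TNF receptors lead to the transcription factor NF-κB. Cytokines of the IL-6 family share the signalling chain gp130, encoded by Il6st, which pairs with a specific chain (encoded by Il6ra, Lifr or Osmr) and acts through JAK kinases and STAT3. In adipose tissue these cytokines are known to alter insulin action and lipolysis, and in skin wounds they belong to the early inflammatory phase.

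Libraries held 5308959 to 17751689 counts, the shallowest being day 3 replicate 1, in which 1 count was worth 0.188 CPM (a count scaled to the total of its library) before normalization. The adipocyte label was checked with 12 marker genes (Cfd, Fabp4 and Retn the most abundant). Their summed level was 80910 to 101750 CPM in uninjured, 75074 to 102450 CPM in day 3 and 49840 to 105705 CPM in day 7 libraries, with no marker at 0 in any group. Markers of other cells were present as well. Those said to rise or fall were called at day 7 against uninjured at an edgeR adjusted p under 0.05. At that threshold 5.90% of all 18656 genes tested rose and 1.77% fell. The 15 macrophage and monocyte markers (chiefly Lyz2, C1qb and C1qa) summed to 150 to 328 CPM in uninjured, 314 and 1191 CPM in day 3 and 534 to 1221 CPM in day 7 libraries, and 5 of them rose at day 7. Skeletal muscle markers (12 genes, 10 of which fell at day 7) summed to 4980 to 10429, 3120 to 5159 and 893 to 1689 CPM in the same order. Fibroblast markers (12 genes, 8 of which rose) summed to 1765 to 2316, 1738 to 5110 and 7022 to 13736 CPM. Endothelial markers (12 genes, 9 of which rose) summed to 82.9 to 176, 264 to 289 and 138 to 570 CPM. Pericyte and vascular smooth muscle markers (10 genes, 5 of which rose) summed to 258 to 370, 227 to 322 and 303 to 606 CPM. Markers of T, B and NK cells (12 genes, 9 tested and 0 called) stayed at 15.7 CPM or less in sum. The 10 neutrophil markers, of which 8 were tested and 2 rose, stayed at 120 CPM or less, S100a8 being the most abundant. The levels below are therefore those of the recovered RNA as a whole, in which fewer cells of a type and less RNA per cell cannot be told apart. The 2 day 3 libraries differed from each other in several of these sums, luminal epithelial markers (10 genes, 9 of which rose at day 7, with a median log2 fold change of 7.17) being at 1590 CPM in replicate 1 and 26.0 CPM in replicate 2 (11.7 to 27.3 CPM in uninjured and 577 to 1241 CPM in day 7 libraries).

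**Figure D1:**
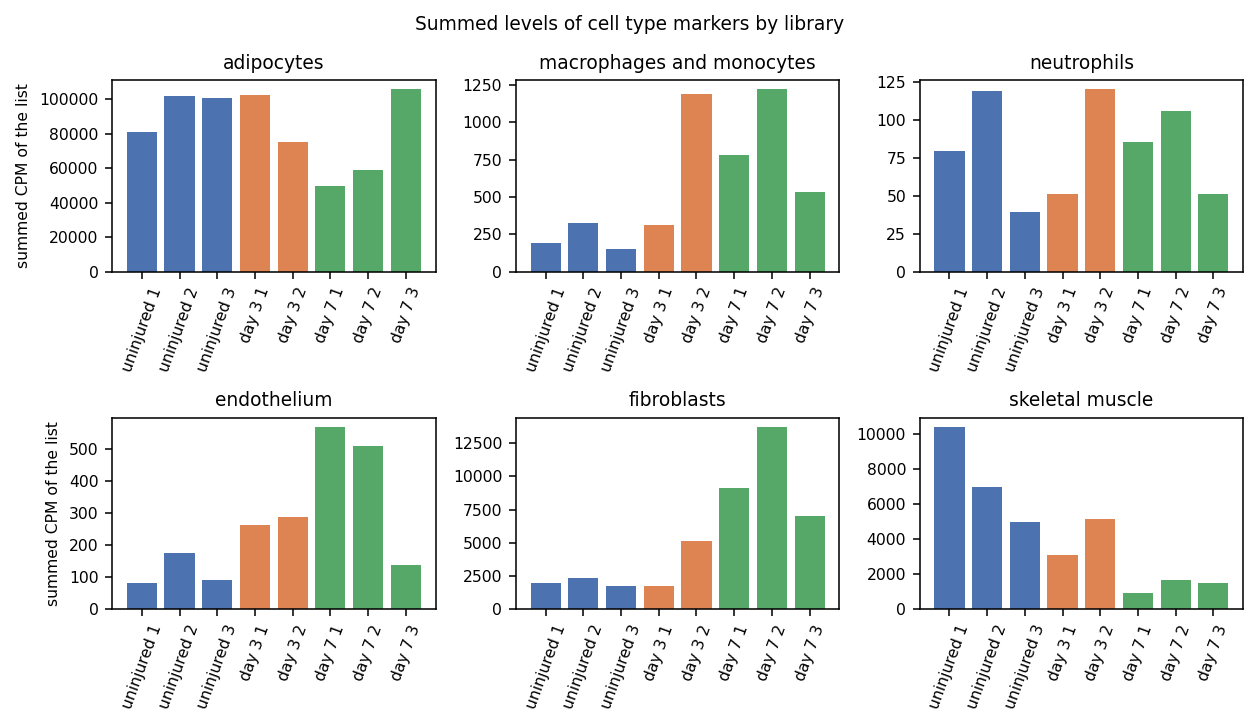
Summed CPM of 6 marker lists (vertical axes, linear and from 0) in each of the 8 libraries (bars; blue uninjured, orange day 3, green day 7). Macrophage markers stood highest in day 3 replicate 2 and day 7 replicate 2 (1191 and 1221 CPM), and the adipocyte sum was highest in day 7 replicate 3 (105705 CPM).

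In uninjured skin the receptor chains stood above most of the ligands. Compared as CPM per kilobase of exon, Il6st led at 6.33 ± 0.759 (SD, n = 3), followed by Il6ra at 3.03 ± 0.105, Il1rn at 2.5 ± 1.42, Il1r1 at 2.43 ± 0.249, Osmr at 1.78 ± 0.194 and Il33 at 1.51 ± 0.768. The other ligands lay far below, with Lif at 0.0831 ± 0.0382, Il1b at 0.0748 ± 0.0666, Tnf at 0.0746 ± 0.0747 and Il6 at 0.00841 ± 0.0146 CPM per kilobase. In this order the ranges of neighbouring genes overlapped except between Il6st and Il6ra, between Il1r1 and Osmr, and between Il33 and Lif. Among the 38669 genes with a count in any library, 83.5% lay below Il6st in level per kilobase in uninjured skin, and 34.7% lay below Tnf and Il1b each. At day 7 the order read Il6st (6.27 ± 0.905), Il33 (5.39 ± 1.41), Il1r1 (4.49 ± 2.36), Osmr (1.90 ± 0.428), Il1rn (1.88 ± 0.672), Il6ra (1.59 ± 0.506), Tnf (1.43 ± 0.860), Il1b (0.899 ± 0.456), Lif (0.361 ± 0.112) and Il6 (0.108 ± 0.0745). Neighbours overlapped there except between Il1r1 and Osmr, between Il1b and Lif and between Lif and Il6. At day 3, with 2 libraries, Il6st was again first (4.39 ± 0.675) and Lif last (0.227 ± 0.147), and all neighbours overlapped except Il6ra (2.77 ± 0.917) and Osmr (1.62 ± 0.418).

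At day 7 against uninjured skin, 2 members rose, Tnf and Il33, and none fell. Il6, with at most 8 counts in a library, did not pass the filter on low counts, so 9 of the 10 members were tested. Of all 18656 genes tested, 5.90% rose and 1.77% fell at the same threshold (edgeR adjusted p under 0.05), so the 2 calls among 9 genes are to be read against that share. The median log2 fold change of the 9 members was 0.88, and that of all genes was 0.04. Without regard to a test, 4 tested members (Il1b, Tnf, Lif and Il33) had all day 7 libraries above all uninjured ones and 1 (Il6ra) had all of them below. The shares of all genes tested were 16.7% above and 13.5% below. Tnf, Il1b and Lif held at most 4, 3 and 9 counts in an uninjured library. They passed the filter on low counts only through wounded libraries. Their lack of overlap and the Tnf call are therefore not independent of that filter.

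**Figure D2:**
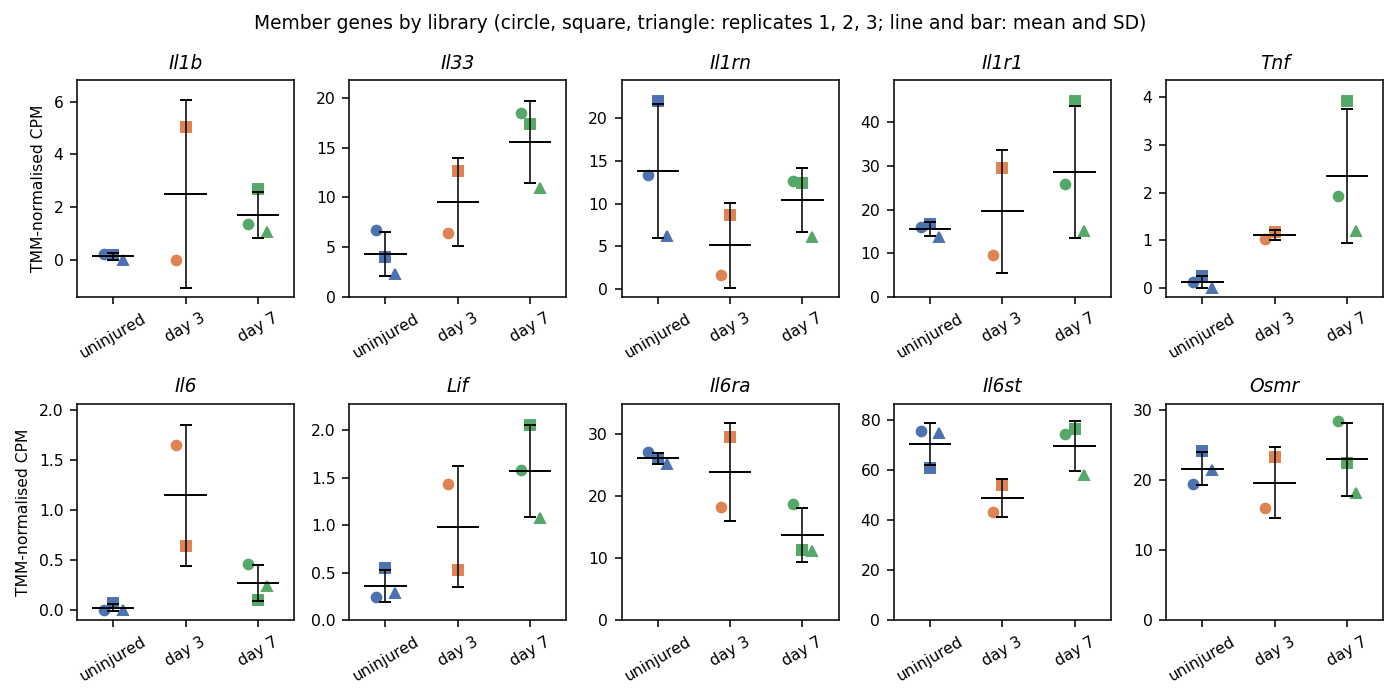
TMM-normalised CPM (vertical axes, linear, a separate scale for each gene) of the 10 members in each library, by group, where circles, squares and triangles are replicates 1, 2 and 3 and the line and bar are the mean and SD. All day 7 points of Tnf, Il33, Il1b, Lif and Il6 lie above the uninjured points, and the day 3 points of Il1b lie at 0 and 5.02 CPM. For Il6, the lowest day 7 point and the highest uninjured point stand for 1 count each.

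Tnf, which encodes tumour necrosis factor, was at 0.122, 0.245 and 0 CPM in uninjured replicates 1 to 3, from 1, 4 and 0 counts. It was at 1.03 and 1.18 CPM at day 3 (5 and 11 counts) and at 1.92, 3.92 and 1.20 CPM at day 7 (17, 42 and 10 counts). Both wounded groups lay above every uninjured library. All day 7 libraries lay above both day 3 libraries, though the closest were at 1.20 and 1.18 CPM. Of all genes tested, 14.2% had every day 7 library above both day 3 ones. Tnf rose 14.9-fold at day 7, or by 3.89 ± 0.84 on the log2 scale (± SE; edgeR adjusted p = 0.0223). At day 3 against uninjured the log2 fold change was 2.81 ± 0.94 (adjusted p = 0.270), and at day 7 against day 3 it was 1.08 ± 0.81 (adjusted p = 0.627), and neither passed. Leaving out uninjured replicate 1, uninjured replicate 3 or day 7 replicate 1 ended the call (highest adjusted p = 0.0894). Without day 7 replicate 2, or with only the libraries of these 2 groups in the fit, Tnf had too few counts to be tested. Macrophage markers were at 779, 1221 and 534 CPM in day 7 replicates 1 to 3, in the order of the Tnf values. At day 3 they were at 314 and 1191 CPM, while Tnf was nearly equal in both libraries. Their part in the result was not tested. In the table Tnf (ENSMUSG00000024401.15) lies on chromosome 17 from 35418357 to 35420983, on the minus strand.

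Il33 was at 6.71, 4.04 and 2.31 CPM in uninjured replicates 1 to 3, at 6.37 and 12.6 CPM at day 3 and at 18.5, 17.4 and 10.9 CPM at day 7. The lowest day 7 library lay above the highest uninjured one, whereas day 3 replicate 1 lay within the uninjured range. Il33 rose 3.56-fold at day 7, or by 1.83 ± 0.44 on the log2 scale (edgeR adjusted p = 0.0316). At day 3 the log2 fold change was 1.14 ± 0.48 (adjusted p = 0.355), and at day 7 against day 3 it was 0.70 ± 0.48 (adjusted p = 0.603). Leaving out uninjured replicate 2 or 3, or either of day 7 replicates 1 and 2, ended the call (highest adjusted p = 0.110). The endothelial marker sum was lowest of the day 7 libraries in replicate 3, as Il33 was (570, 511 and 138 CPM in replicates 1 to 3). The fibroblast marker sum was 9122, 13736 and 7022 CPM in the same libraries, and the part of either in the result was not tested. Il33 (ENSMUSG00000024810.17) lies on chromosome 19 from 29902514 to 29938118, on the plus strand.

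Il1b was close to absent in uninjured skin, with 2, 3 and 0 counts. It had 12, 29 and 9 counts at day 7, or 1.36, 2.71 and 1.08 CPM, against at most 0.244 CPM in an uninjured library. The groups did not overlap, but the log2 fold change of 3.38 ± 1.21 did not pass (edgeR adjusted p = 0.109). The DESeq2 test called it (adjusted p = 0.0441). At day 3 the libraries held 0 counts in replicate 1 and 47 counts (5.02 CPM) in replicate 2, so replicate 2 had the highest level of all 8 libraries and replicate 1 none detected, where 3 counts would be 0.565 CPM before normalization. The day 3 log2 fold change of 3.99 ± 1.27 (adjusted p = 0.258) rested on replicate 2 and was -3.62 without it. Macrophage markers split the same way at day 3 (314 and 1191 CPM), as did neutrophil (51.4 and 120 CPM), fibroblast (1738 and 5110 CPM) and keratinocyte markers (1508 and 6007 CPM). Adipocyte, pericyte and luminal epithelial markers were lower in replicate 2. The neutrophil sum was nearly as high in uninjured replicate 2 (119 CPM), which had 3 Il1b counts, but S100a8 weighed heavily in it. S100a8 was at 101 CPM in uninjured replicate 2 and 63.8 CPM in day 3 replicate 2. The next most abundant neutrophil markers went the other way, S100a9 at 2.20 and 22.5 CPM and Il1r2 at 8.02 and 15.9 CPM. The part of these cells in the result was not tested. Il1b (ENSMUSG00000027398.14) lies on chromosome 2 from 129206490 to 129213059, on the minus strand, and shares at most 25 exon bases in a stretch with the antisense gene Il1bos, which had 0 to 3 counts a library.

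Il1rn, the antagonist, passed in no comparison and spread widely within groups. It was at 13.3, 21.9 and 6.21 CPM in uninjured, 1.65 and 8.66 CPM in day 3 and 12.7, 12.4 and 6.11 CPM in day 7 libraries. The uninjured and day 7 ranges overlapped, with uninjured replicates 1 and 2 above every day 7 library (log2 fold change -0.42 ± 0.56, edgeR adjusted p = 0.658), and day 3 replicate 1 was the lowest of all. At day 3 the log2 fold change was -1.38 ± 0.67 (adjusted p = 0.417). Keratinocyte and hair follicle markers (12 genes) were likewise lowest in day 3 replicate 1, at 1508 CPM against 1904 to 7320 CPM in the other libraries, and their part was not tested. In the table Il1rn (ENSMUSG00000026981.16) lies on chromosome 2 from 24226865 to 24241506.

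Within a library, the antagonist took a smaller share of the counts of the pair at day 7 than in uninjured skin. This share was not tested, and neither gene alone was called in the main edgeR fit. Il1rn made up 98.2% (exact 95% interval 93.6 to 99.8), 99.2% (97.6 to 99.8) and 100% (91.8 to 100) of the summed Il1rn and Il1b counts in uninjured replicates 1 to 3. In day 7 replicates 1 to 3 it made up 90.3% (83.7 to 94.9), 82.1% (75.3 to 87.7) and 85.0% (73.4 to 92.9). All 3 day 7 shares lay below all uninjured ones, and the intervals, which cover counting error only, overlapped between some libraries of both groups. At day 3 the share was 63.3% (54.3 to 71.6) in replicate 2, the lowest of all, and rested on 8 counts in replicate 1 (100%, interval 63.1 to 100). Per base of exon, Il1rn exceeded Il1b 18.8-fold and 41.1-fold in uninjured replicates 1 and 2, and 3.22-fold, 1.58-fold and 1.95-fold in day 7 replicates 1 to 3, and was below it in day 3 replicate 2 (ratio 0.594).

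Il1r1, the signalling receptor of IL-1, was at 16.0, 16.8 and 13.7 CPM in uninjured, 9.67 and 29.5 CPM in day 3 and 25.8, 44.8 and 15.1 CPM in day 7 libraries. Day 7 replicate 3 lay within the uninjured range, so the groups overlapped. The log2 fold change of 0.88 ± 0.44 at day 7 did not pass (edgeR adjusted p = 0.219), nor did those of 0.35 ± 0.49 at day 3 and 0.53 ± 0.49 at day 7 against day 3. The day 3 value turned to -0.70 without day 3 replicate 2. Il1rap, the accessory chain that Il1r1 needs to signal, was at 2.20, 3.31 and 2.46 CPM in uninjured skin and 2.60, 1.68 and 2.40 CPM at day 7 (adjusted p = 0.795). Il1r1 (ENSMUSG00000026072.13) lies on chromosome 1 from 40264240 to 40356417.

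Both IL-6 family ligands among the members were scarce at every stage. Il6 had 0, 1 and 0 counts in uninjured, 8 and 6 in day 3 and 4, 1 and 2 in day 7 libraries. These are 0, 0.0612 and 0 CPM, then 1.65 and 0.641 CPM, then 0.453, 0.0933 and 0.240 CPM. Every day 3 library lay above every day 7 library, and every day 7 library above every uninjured one. Day 7 replicate 2 and uninjured replicate 2 each had 1 count, so their order rests on library depth alone. Of all genes tested, 11.4% had every day 7 library below both day 3 ones. By rate of counts the ratio of day 3 to uninjured was 31.0 (exact 95% interval 4.71 to 1310), that of day 7 to uninjured 7.89 (1.01 to 356) and that of day 3 to day 7 3.92 (1.48 to 11.5). These intervals cover counting error only, and the gene was not tested. Lif, leukaemia inhibitory factor, had 2, 9 and 2 counts in uninjured (0.244, 0.551 and 0.289 CPM), 7 and 5 in day 3 (1.44 and 0.535 CPM) and 14, 22 and 9 in day 7 libraries (1.58, 2.05 and 1.08 CPM). Day 7 libraries all lay above the uninjured ones, but the log2 fold change of 2.01 ± 0.70 did not pass (edgeR adjusted p = 0.101, and 0.113 in DESeq2). By group mean, Il6 was highest at day 3 and Lif at day 7. For Lif the day 3 and day 7 libraries overlapped, and the log2 fold change between them was 0.74 ± 0.77 (edgeR adjusted p = 0.739). Whether the order in time differed between these genes was not tested. Il6 (ENSMUSG00000025746.12) lies on chromosome 5 from 30218112 to 30224979 and Lif (ENSMUSG00000034394.15) on chromosome 11 from 4207557 to 4222514.

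Of the 5 ligand genes whose day 7 libraries all lay above the uninjured ones, Tnf, Il6 and Lif are shown with the 250 bases before their RefSeq start (build GRCm38.p6), since NF-κB and AP-1 are known regulators of cytokine genes. Letters are 5′ to 3′ on the gene's strand, and capitals mark matches to the κB consensus or to the AP-1 motif TGANTCA.
Tnf, chr17:35202008-35202257, minus strand: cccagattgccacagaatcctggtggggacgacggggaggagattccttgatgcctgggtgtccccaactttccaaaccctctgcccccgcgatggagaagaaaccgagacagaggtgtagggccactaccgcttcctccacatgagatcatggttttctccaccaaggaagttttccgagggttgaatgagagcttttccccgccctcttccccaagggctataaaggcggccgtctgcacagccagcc
Il6, chr5:30012864-30013113, plus strand: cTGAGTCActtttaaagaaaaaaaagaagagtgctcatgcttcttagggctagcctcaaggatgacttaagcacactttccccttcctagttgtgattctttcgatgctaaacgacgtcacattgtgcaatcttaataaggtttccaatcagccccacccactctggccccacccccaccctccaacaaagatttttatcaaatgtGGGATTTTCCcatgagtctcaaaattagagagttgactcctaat
Lif, chr11:4257318-4257567, plus strand: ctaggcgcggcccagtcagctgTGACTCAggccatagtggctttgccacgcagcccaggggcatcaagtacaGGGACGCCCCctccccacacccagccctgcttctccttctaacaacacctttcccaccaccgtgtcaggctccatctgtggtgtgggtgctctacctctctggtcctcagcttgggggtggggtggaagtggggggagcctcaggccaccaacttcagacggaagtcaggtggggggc
The Il6 stretch held an AP-1 match (positions -249 to -243 from the start) and a κB match, GGGATTTTCC (-44 to -35). That of Lif held an AP-1 match (-228 to -222) and a κB match, GGGACGCCCC, on both strands (-178 to -169). Neither motif, nor the STAT motif TTCNNNGAA, was found in this window of Tnf, Il1b or either listed start of Il33. Searched on both strands, 7.25% of 32851 RefSeq promoter windows of the same length held the κB consensus, 6.75% the AP-1 motif and 7.02% the STAT motif. Of the other members, Il1rn held an AP-1 match at 1 of 3 starts and Il1r1 a κB match at 1 of 2, and Il6ra, Il6st and Osmr held none.

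Il6ra, the chain that binds IL-6, was at 27.1, 26.1 and 25.3 CPM in uninjured, 18.3 and 29.5 CPM in day 3 and 18.8, 11.3 and 11.1 CPM in day 7 libraries. Every day 7 library lay below every uninjured one, at a log2 fold change of -0.93 ± 0.28 that missed the threshold (edgeR adjusted p = 0.0699). DESeq2 called it (adjusted p = 0.0309), as did edgeR without a filter on low counts (adjusted p = 0.0336). Of the 12 adipocyte markers, 0 were called at day 7 and 1 had a positive log2 fold change (median -0.64, against 0.04 for all genes). Of all genes tested, 7.67% were called and 52.1% had a positive log2 fold change. The adipocyte sum was 49840, 59002 and 105705 CPM in day 7 replicates 1 to 3. Skeletal muscle markers summed to 893, 1689 and 1515 CPM in the same libraries, against 4980 to 10429 CPM in uninjured skin. The part of either list was not tested. Il6ra (ENSMUSG00000027947.12), on chromosome 3 from 89771366 to 89820503, shares up to 242 exon bases in a stretch with Gm42809 on the other strand, which had 0 to 7 counts a library.

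Il6st, the shared chain gp130, was at 75.5, 60.6 and 74.8 CPM in uninjured, 43.4 and 54.0 CPM in day 3 and 74.5, 76.1 and 58.0 CPM in day 7 libraries. Day 3 libraries lay below all others, but neither the log2 fold change of -0.53 ± 0.24 against uninjured (edgeR adjusted p = 0.386) nor that of 0.51 ± 0.24 for day 7 against day 3 (adjusted p = 0.461) passed. Of all genes tested, 17.2% had both day 3 libraries below every uninjured one. In 14.2%, every day 7 library lay above both day 3 ones. At day 7 against uninjured the log2 fold change was -0.01 ± 0.21 (adjusted p = 0.971), and its sign changed with the scaling and filter. Osmr, the chain for oncostatin M, was at 19.4, 24.1 and 21.4 CPM in uninjured, 16.0 and 23.2 CPM in day 3 and 28.4, 22.4 and 18.1 CPM in day 7 libraries, ranges that overlapped in every comparison (log2 fold change 0.09 ± 0.26 at day 7, adjusted p = 0.851). Lifr, the chain for LIF, was at 17.4, 32.2 and 20.8 CPM in uninjured skin and 28.2, 39.2 and 23.2 CPM at day 7 (adjusted p = 0.430). Osmr (ENSMUSG00000022146.13) lies on chromosome 15 from 6843058 to 6904450 and Il6st (ENSMUSG00000021756.13) on chromosome 13 from 112600604 to 112646620.

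Within a library, Il6st and Osmr stood higher relative to Il6ra at day 7. Per base of exon, Il6st exceeded Il6ra 2.17-fold, 1.81-fold and 2.31-fold in uninjured, 1.85-fold and 1.43-fold in day 3 and 3.09-fold, 5.25-fold and 4.05-fold in day 7 libraries. The ratio of Osmr to Il6ra was 0.511, 0.658 and 0.603 in uninjured, 0.625 and 0.561 in day 3 and 1.08, 1.42 and 1.16 in day 7 libraries. Both ratios were thus higher in every day 7 library than in any other, while those of the other groups overlapped. The ratios of Osmr to Lifr, Il6st to Lifr and Il1r1 to Il1rap overlapped between uninjured and day 7 libraries. The ratios to Il6ra were chosen once the members' levels were known and were not tested.

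**Figure D3:**
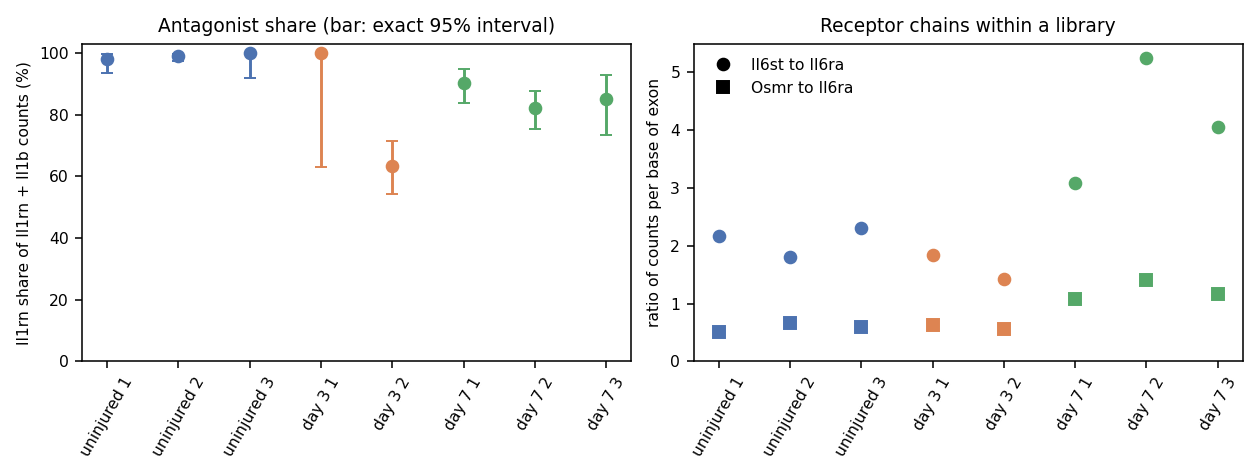
Left, Il1rn counts as a percentage of Il1rn plus Il1b counts in each library, with exact 95% binomial intervals (counting error only). Right, ratios of counts per base of exon of Il6st (circles) and Osmr (squares) to Il6ra, where colours mark uninjured (blue), day 3 (orange) and day 7 (green) libraries and the day 7 ratios are the highest (Osmr to Il6ra 1.08 to 1.42).

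At day 3 against uninjured skin no member passed, and 0.0107% of all genes tested did (2 genes, both higher and none lower, or 0%). At an unadjusted p under 0.05, 3 members (Il1b, Tnf and Il33, all with positive fold changes) and 13% of all genes were found, and DESeq2 likewise called 0 members. Their libraries overlapped with the uninjured ones for Il1b and Il33 and did not for Tnf. Of all genes, 16.9% had every day 3 library above and 17.2% every one below the uninjured ones. The median log2 fold change of the 9 members was 0.35, against 0.02 for all genes. At day 7 against day 3, 0 members passed in edgeR or DESeq2, against 0.0858% of all genes tested (16 genes, 0.0643% higher and 0.0214% lower), and 1 member (Il6ra) and 11% of all genes had an unadjusted p under 0.05. Of all genes tested, 14.2% had every day 7 library above and 11.4% every one below the day 3 ones. The comparisons of day 3 and of day 7 with uninjured share the same 3 uninjured libraries and are not independent of each other.

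**Figure D4:**
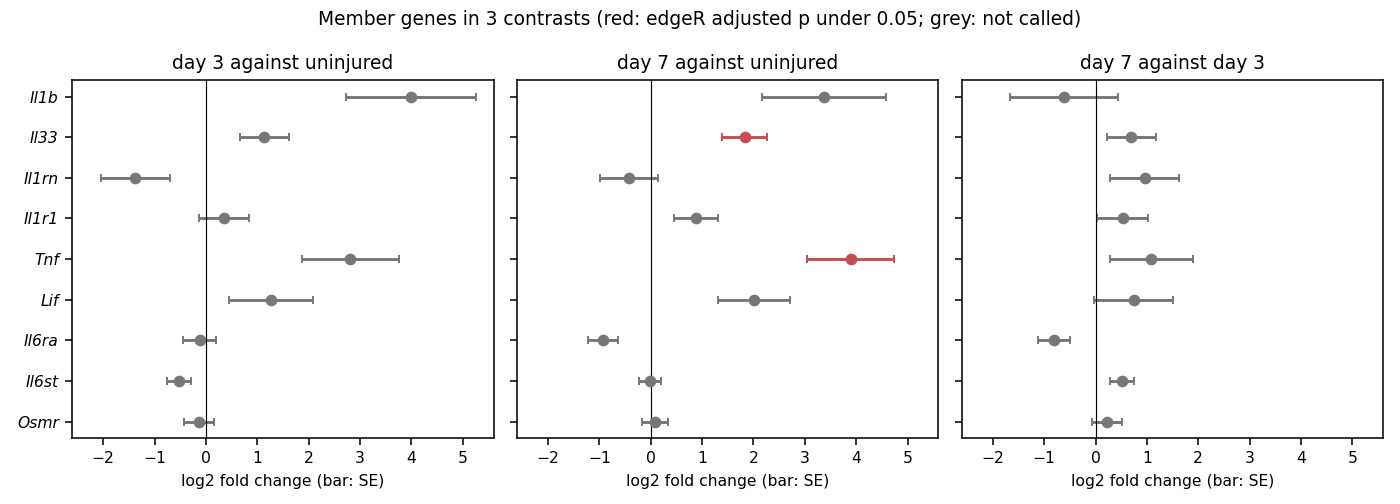
Log2 fold changes (points) with SE (bars) of the 9 tested members in the 3 contrasts, red where the edgeR adjusted p was under 0.05 and grey elsewhere. Tnf (3.89 ± 0.84) and Il33 (1.83 ± 0.44) at day 7 against uninjured are the points marked as called.

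The other genes of these pathways gave 10 calls at day 7, all higher, among 106 tested genes that are not members, and their median log2 fold change was 0.18. Over all genes tested 5.90% rose and the median was 0.04, and the counts of each list below are to be read beside those values. Of 20 tested genes of the IL-1 family with its receptors and regulators, 3 rose and 0 fell, Il33 among them. Il1rl1, the receptor of IL-33, rose 4.70-fold, with 0.854, 0.674 and 1.16 CPM in uninjured against 4.98, 4.01 and 3.47 CPM in day 7 libraries (log2 fold change 2.23 ± 0.51, edgeR adjusted p = 0.0274). Sigirr, a receptor that restrains IL-1 family signalling, was at 0.488, 1.22 and 0.867 CPM before wounding and rose 9.55-fold (9.96, 12.7 and 3.11 CPM at day 7, adjusted p = 0.0115). Ligand and receptor of the IL-33 pair were thus both higher in all 3 day 7 libraries than in any uninjured one. The markers of mast cells, which also carry the IL-33 receptor (8 genes), summed to 14.5 to 21.6 CPM in uninjured and 36.1 to 93.3 CPM in day 7 libraries. Kit had the highest mean among them, at 0.976 to 2.31 CPM in uninjured and 13.3 to 30.1 CPM in day 7 libraries. At day 3 Kit was at 29.0 and 3.96 CPM in replicates 1 and 2, the order of the luminal epithelial sum (1590 and 26.0 CPM). Tpsb2 (3.70 and 16.1 CPM) and Cma1 (3.70 and 15.9 CPM) had the reverse order there. Tpsb2 did not rise in every library, with 14.7, 23.5 and 3.23 CPM at day 7 against 3.90 to 6.68 CPM in uninjured skin. The part of mast cells was not tested. Casp1, the protease that matures IL-1β and IL-18, was at 31.3, 36.7 and 31.8 CPM in uninjured skin and 9.51, 21.7 and 18.4 CPM at day 7 (adjusted p = 0.0921). Il18r1, a chain of the IL-18 receptor, was at 0.488 to 0.722 CPM in uninjured skin and 1.12 to 4.07 CPM at day 7 (adjusted p = 0.0804). The Il1rl1 call ended when any 1 uninjured library, or either of day 7 replicates 1 and 2, was left out (highest adjusted p = 0.106), and that of Sigirr when uninjured replicate 1 or day 7 replicate 2 was (0.0562).

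Around Tnf, 1 of 13 tested genes of the TNF ligand and receptor list rose, Tnf itself. Tnfrsf1a, the broadly expressed TNF receptor, was at 225, 233 and 213 CPM in uninjured, 124 and 166 CPM in day 3 and 94.8, 143 and 168 CPM in day 7 libraries. Every wounded library lay below every uninjured one, but the log2 fold change of -0.73 ± 0.25 at day 7 did not pass (edgeR adjusted p = 0.0931). Tnfrsf1b, the receptor of immune and endothelial cells, was at 9.27, 6.49 and 7.94 CPM in uninjured skin and 15.5, 18.4 and 8.74 CPM at day 7 (adjusted p = 0.218). The lymphotoxin gene Ltb and Tnfsf12, which encodes TWEAK, had all day 7 libraries above all uninjured ones but did not pass (adjusted p = 0.0871 and 0.0929). In the IL-6 family list, 1 of 12 tested genes rose. It was Cntfr, the receptor chain for ciliary neurotrophic factor, 5.65-fold higher at day 7 (0.244, 1.84 and 0.867 CPM, then 9.06, 5.04 and 3.71 CPM, adjusted p = 0.0445). Its call ended when uninjured replicate 1 or 3, or either of day 7 replicates 1 and 2, was left out (highest adjusted p = 0.177). Clcf1, a ligand that signals through the Cntfr chain, was at 0.732 to 2.39 CPM in uninjured skin and 1.80 to 6.35 CPM at day 7 (adjusted p = 0.182).

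None of the intracellular transducers passed. Of 18 IL-1 and TNF transducers, 0 rose and 0 fell in edgeR, and 7 had a positive fold change (median log2 -0.22). Nfkb1, which encodes the p105 and p50 forms of NF-κB, stood at the threshold, at 15.1, 16.0 and 16.5 CPM in uninjured skin and 53.1, 32.9 and 20.4 CPM at day 7 (adjusted p = 0.0505). The adaptor Myd88 (77.7, 92.5 and 88.4 CPM, then 33.4, 57.9 and 56.3 CPM at day 7, adjusted p = 0.0959) and the inhibitor Tollip (82.1, 56.5 and 76.0 CPM, then 40.2, 47.3 and 43.0 CPM, adjusted p = 0.0682) had all day 7 libraries below all uninjured ones. Of 13 JAK and STAT transducers and SOCS inhibitors, 0 passed (median log2 0.02). Stat3 itself was at 104, 121 and 121 CPM in uninjured skin and 118, 126 and 107 CPM at day 7 (adjusted p = 0.957). Socs1, an inhibitor induced by cytokines, was at 9.27, 7.96 and 9.10 CPM and then 16.9, 14.2 and 16.1 CPM (adjusted p = 0.0687). Socs3, the feedback inhibitor of gp130, was at 9.86 to 32.2 CPM and 23.4 to 49.7 CPM (adjusted p = 0.324).

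Genes listed as targets of these pathways gave 7 of the calls, and a gene of 1 list may also answer to the other pathway. Of 21 tested NF-κB targets, 4 rose and 0 fell (median log2 0.77). The neutrophil attractant Cxcl5 rose, with 0, 0.184 and 0 CPM in uninjured against 2.49, 3.64 and 1.44 CPM in day 7 libraries (edgeR adjusted p = 0.0138). The monocyte attractant Ccl2 was at 1.22, 1.65 and 0.144 CPM and rose to 6.68, 11.2 and 7.67 CPM (adjusted p = 0.0198). The adhesion molecule Icam1 rose 4.55-fold, to 12.6, 21.6 and 5.87 CPM (adjusted p = 0.0337). Cxcl2 was called higher (adjusted p = 0.0449) on 4.30 and 4.57 CPM in day 7 replicates 1 and 2, with none detected in replicate 3. Nfkbia, the inhibitor IκBα that NF-κB induces, did not pass at day 7 (115, 126 and 189 CPM before wounding, 145, 116 and 116 CPM at day 7, adjusted p = 0.655) and was at 198 and 280 CPM at day 3 (adjusted p = 0.311). Of 20 genes listed as STAT3 targets, 3 rose and 0 fell (median log2 0.02). Timp1, an inhibitor of metalloproteinases, rose 18.3-fold to 43.7, 111 and 36.3 CPM (edgeR adjusted p = 0.0183). Tnfaip6, a hyaluronan-binding protein named for its induction by TNF, rose 4.29-fold (edgeR adjusted p = 0.0402). The acute-phase gene Saa3 rose 11.1-fold, standing at 44.0, 221 and 7.80 CPM before wounding and 489, 1619 and 925 CPM at day 7 (adjusted p = 0.0440). Lrg1, an acute-phase glycoprotein, was at 5204, 7419 and 5028 CPM in uninjured skin and 954, 2074 and 2706 CPM at day 7 (adjusted p = 0.0624). Of these 7 genes, Cxcl5 and Ccl2 kept their calls in 11 of 13 alternative fits each, losing them without uninjured replicate 1 or day 7 replicate 2 (highest adjusted p = 0.0573 and 0.0805). Timp1 lost its call without uninjured replicate 1 or 3 or day 7 replicate 2, Cxcl2 without any 1 uninjured library, Saa3 when either of uninjured replicates 1 and 3 or of day 7 replicates 1 and 2 was left out, and Icam1 and Tnfaip6 in every fit without 1 of these libraries other than day 7 replicate 3 (highest adjusted p over these 5 genes 0.159). Of the pathway genes named, Icam1, Myd88, Stat3, Clcf1, Tnfsf12, Il1rap and Il1a share exon bases with a neighbouring gene, so reads could be split or misassigned there.

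**Figure D5:**
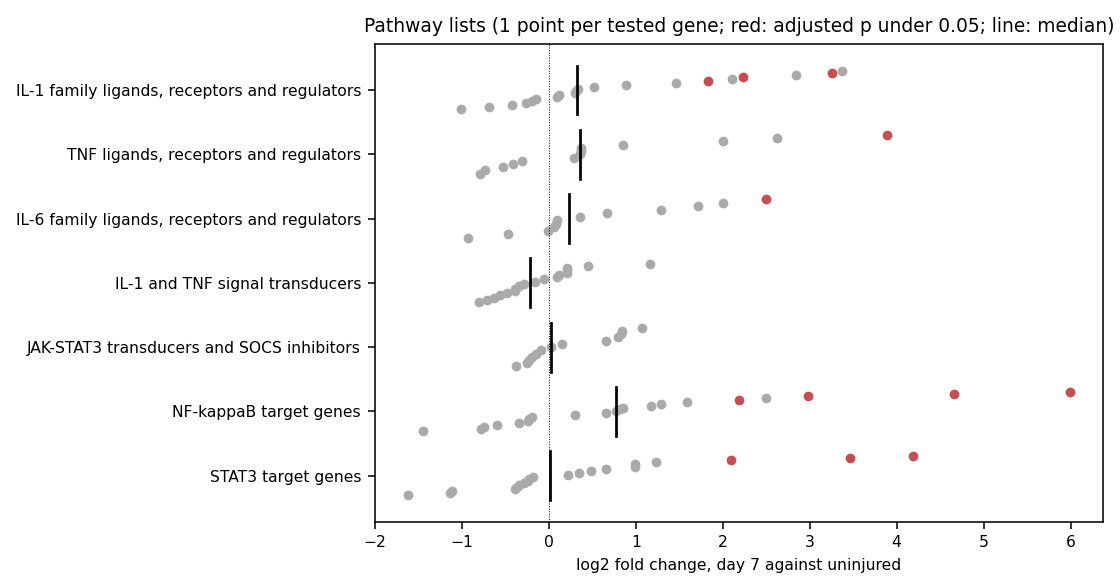
Log2 fold change at day 7 against uninjured (horizontal axis) of every tested gene in the 7 pathway lists, red where the edgeR adjusted p was under 0.05, with the list's median as a black line. The called genes all lie to the right, and 4 of them are in the NF-κB target list.

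At day 3 none of the 106 other pathway genes passed in edgeR, and DESeq2 called 5. Lcn2 and Saa3 had all day 3 libraries above all uninjured ones. Lcn2, lipocalin 2, was at 411 and 433 CPM at day 3, against 11.2 to 49.8 CPM in uninjured skin and 22.1 to 85.8 CPM at day 7 (log2 fold change 3.85, edgeR adjusted p = 0.114). Saa3 was at 1814 and 1288 CPM (adjusted p = 0.181). The 2 day 3 libraries lay closer together for both genes than for Il1b and Il1r1.

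The genes with the most similar profile over the 8 libraries were found for the 8 members with a mean of at least 1 CPM, by the smallest root mean square difference of centred log2(CPM + 0.5) values among the other genes with a mean of at least 5 CPM. For Il1b they were Coro1a (difference 0.21), Cyth4 (0.33) and Arhgap9 (0.35), genes of the leukocyte cytoskeleton and its signalling. For Il1r1 they were Lgmn (0.22), the TNF receptor gene Tnfrsf1b (0.22) and Slc39a14 (0.23). Tnf was nearest to Wsb1 (0.24), Oasl2 (0.26) and Rgs10 (0.28), and Il33 to Cnn2 (0.18), Phf11d (0.22) and Arhgef10l (0.23). Il1rn was nearest to Sdr16c6 (0.28), Rarres1 (0.30) and Ly6g6c (0.36), which shared its low value in day 3 replicate 1 (2.06, 1.44 and 27.6 CPM). Il6ra was nearest to Sik3 (0.21), Ccdc166 (0.21) and Prmt9 (0.21), Il6st to Nolc1 (0.09), Cyfip1 (0.10) and Tmem41a (0.10), and Osmr to Fry (0.08), Exosc7 (0.08) and Sema6d (0.09). The small differences of Il6st and Osmr go with their small spread over the libraries (SD 0.29 and 0.25 on the log2 scale, against 1.29 for Il1b), and all 8 points share their libraries and scaling.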

How the data were processed

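Raw read counts per gene are the unit of the table the authors deposited, 1 column per library. Per the file headers, featureCounts 2.0.8 did the counting. The submitters' processing notes also name STAR 2.7.10b, DESeq2 and mm10. No source used here gives the strand or multi-mapping settings, so overlapping genes may share reads. The exon length of a gene is that of the deposited table. Of its 53700 identifiers, 52093 were matched to symbols (GENCODE M21, GRCm38). The starts of 0 of the 10 members equal those of that annotation, so coordinates are the table's and their build is not settled.

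Counts were normalised by TMM and filtered at a minimum count of 10, which left 18656 genes. Genes scarce in uninjured skin passed only through wounded libraries, so a rise among them is not independent of the filter. A mean per group was fitted to all 8 libraries (5 residual degrees of freedom) with the quasi-likelihood F test of edgeR 4.0.16 in R 4.3.3, two-sided, with Benjamini-Hochberg adjustment at 0.05 over all genes. Where the labels assign each library a replicate number, a fit with that block was an alternative, beside other scalings and filters, DESeq2 1.42.0, fits of 2 groups and fits without each library. The procedure was tested on simulated data. The members, 7 pathway lists and 11 marker lists were chosen with earlier results of these data known. All members are named, and of each pathway list up to 4 genes with the smallest adjusted p and every called gene where at most 5 passed. Other genes were chosen after their values were seen. Lists are described by counts and medians only, and 1 gene that the rule would name is not reported here.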

Additional observations from a re-analysis of the deposited data

How the results depend on the processing

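At day 7 against uninjured skin, 1431 genes were called in all, 2 of them members and 12 pathway genes with the members. DESeq2 called 2602 genes, 4 members and 27 pathway genes, and edgeR without a filter 3156, 4 and 30. The added members were Il1b and Il6ra in both. With only the groups compared, 1 member was called. Leaving out 1 library gave 314 to 4055 genes (the most without day 7 replicate 3), 0 to 2 members and 0 to 24 pathway genes. Il33 kept its call in 9 of 13 alternatives (adjusted p 0.000312 to 0.110) and Tnf in 8 of the 11 that could test it (0.000645 to 0.0894). At day 3, the 2 genes called became 432 in DESeq2, 926 without a filter and 0 with only the groups compared. Pathway genes went from 0 to 5 and 10 in the first 2 of these, and 1 member, Il1b, was called without a filter. Leaving out 1 library gave 0 to 150 genes and 0 to 1 pathway genes. At day 7 against day 3, the 16 genes called became 26 with upper-quartile scaling, 226 in DESeq2 and 572 without a filter, and pathway genes went from 0 to 2 and 8 in the last 2. Leaving out 1 library gave 5 to 34 genes. The cause of these changes was not tested. Upper-quartile scaling moved the median log2 fold change of all genes from 0.02 to 0.13 at day 3, and dropping the filter moved it from 0.04 to 0.11 at day 7.

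With the replicate block, 7 genes and 1 pathway gene were called at day 3, and 126 and 1 at day 7 against day 3. At day 7 against uninjured, 2131 genes and 19 pathway genes were called, with the same 2 members. Same-numbered libraries deviated from their group means with correlations of -0.09 to 0.22, and differently numbered ones with -0.23 to 0.21. With so few libraries, whether the numbers pair them cannot be told from these values. In that fit Il1r1 turned to -0.062 at day 3 and Il1b to 0.33 at day 7 against day 3.

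No called member changed sign. Among uncalled ones, the log2 fold change of Il6st at day 7 against uninjured was 0.014 with upper-quartile scaling, 0.0072 at a minimum count of 20 and 0.022 with only the groups compared. Fits without 1 library ranged from -0.11 to 0.10 for it, from -0.76 to 0.091 for Il1rn and from -0.10 to 0.23 for Osmr. At day 3 they ranged from -3.62 to 4.91 for Il1b, from -0.70 to 0.92 for Il1r1, from -0.53 to 0.17 for Il6ra and from -0.45 to 0.10 for Osmr, and at day 7 against day 3 from -1.54 to 6.99 for Il1b, from -0.055 to 1.57 for Il1r1 and from -0.027 to 0.52 for Osmr. With 1 day 3 library left, that library was assumed to vary like the other groups. Il6, Lif, Tnf and Il1b, with at most 8, 22, 42 and 47 counts in a library, are limited by depth.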

Other observations

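The IL-36 branch of the IL-1 family, made mainly by epithelium, passed in no comparison. Il36rn, the IL-36 receptor antagonist, was at 7.07, 30.5 and 6.35 CPM in uninjured, 4.11 and 12.7 CPM in day 3 and 26.4, 11.6 and 17.0 CPM in day 7 libraries (day 7 edgeR adjusted p = 0.775). The agonist gene Il36g was at 1.59 to 8.33 CPM in uninjured skin and 3.17 to 11.1 CPM at day 7 (adjusted p = 0.770). Il1a, the other agonist of the IL-1 receptor, was at 0.433 to 4.03 CPM in uninjured and 0.933 to 1.92 CPM in day 7 libraries, and was not detected in day 3 replicate 1 (adjusted p = 0.648 at day 7). The decoy receptor gene Il1r2 was at 4.48 to 8.02 CPM in uninjured, 5.14 and 15.9 CPM in day 3 and 4.19 to 8.04 CPM in day 7 libraries, and passed in neither comparison with uninjured skin (adjusted p = 0.482 at day 3 and 0.917 at day 7).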
